A study of Rattus norvegicus with 9 samples.

Results

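Xenobiotic defence was followed through 10 genes in neonatal rat ventricular myocytes that received an adenovirus for a transcription factor or for GFP. They were the rows of the deposited count and RPKM tables with the symbols Nqo1, Cbr1, Ephx1, Gstm1, Gstp1, Gsta4, Gsto1, Abcc1, Abcc4 and Osgin1, which makes 10 of 28935 rows. The study collected stranded mRNA-seq from primary heart muscle cells of Sprague-Dawley rats aged 1 or 2 days, in 3 groups of 3 libraries: adenovirus for Nfya, adenovirus for Nfe2l1, and adenovirus for GFP, the negative control. All 9 cultures had grown for 48 h with 3% fetal bovine serum and were then kept for 48 h in serum-free medium with 8 µL of virus per well. The labels give neither the species of the Nfya and Nfe2l1 sequences in the viruses nor whether replicate libraries stem from different cell preparations, so a p-value speaks of the spread among libraries alone, and that spread may be technical.

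Xenobiotic defence runs in steps. Oxidases and reductases first open or reduce a reactive group, transferases then attach glutathione, glucuronate or sulfate, and membrane pumps export the conjugate. In the heart the same enzymes clear aldehydes from oxidised lipids and quinones, including those of anthracycline drugs. Many of these genes carry antioxidant response elements, which dimers of a CNC factor (NFE2L1, NFE2L2) and a small MAF protein bind, and some are also targets of the aryl hydrocarbon receptor. NFYA is the subunit of the NF-Y trimer that contacts the CCAAT box.

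Library totals ran from 5712123 to 7310774 counts. The Nfya transcript itself had 89.0 ± 0.683 CPM in Nfya-labelled, 92.3 ± 2.20 CPM in Nfe2l1-labelled and 80.4 ± 2.19 CPM in GFP libraries (SD, n = 3 each), so it was as high under the Nfe2l1 label as under its own. Against GFP, edgeR called the Nfya transcript higher under its own label (adjusted p = 0.00926, and 0.0843 in DESeq2). It was also called higher under the Nfe2l1 label (adjusted p = 2.06e-04). The Nfe2l1 transcript had 239 ± 6.14 CPM in Nfe2l1-labelled, 241 ± 6.09 CPM in GFP and 223 ± 4.79 CPM in Nfya-labelled libraries. Its fall under the Nfya label against GFP was called in edgeR (adjusted p = 0.00784) and lost in DESeq2 (adjusted p = 0.102). Neither transcript therefore backs the label of its virus, and whether a viral transcript would be counted under the rat symbol was not tested: the groups are called Nfya-labelled and Nfe2l1-labelled. The 3 Nfya-labelled libraries differed from each other by no more than counting noise (chi-square per degree of freedom 0.969 to 1.00, against 1.12 to 1.53 between Nfe2l1-labelled and 1.06 to 1.67 between GFP libraries), so they could not be told apart from repeats of 1 sample, and their SD may hold counting error alone. Every call of the 9 tested genes given for all 9 libraries was also obtained with the Nfya-labelled libraries summed to 1 sample.

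Levels are given as CPM (counts relative to library size, scaled by TMM) for a gene between groups, and as the deposited RPKM, which divides by gene length, between genes. A gene was called at an adjusted p below 0.05 in edgeR's quasi-likelihood F test over 14151 genes, with all 9 libraries in 1 fit. Of the 10 genes, 9 passed the filter on low counts. In Nfya-labelled libraries 6 of these 9 fell against GFP (Nqo1, Gstm1, Gstp1, Abcc1, Abcc4 and Osgin1) and 1 rose (Ephx1), where 27.9% and 24.3% of all genes tested were called lower and higher (52.2% in either direction). The libraries of these 7 genes did not overlap with GFP, as for 61.6% of all genes. In Nfe2l1-labelled libraries 2 of 9 rose against GFP (Ephx1 and Gsto1) and 0 fell, where 28.9% and 29.7% of all genes were called higher and lower. That 0 was also the count at an unadjusted p below 0.05 and in DESeq2, while limma on RPKM called 1 lower (Gstm1). The median log2 fold change of the 9 genes was -0.26 in Nfya-labelled libraries, against -0.02 for all genes, and -0.04 in Nfe2l1-labelled libraries, against -0.01 for all genes. Both comparisons share the GFP libraries. With 3 libraries a group, an exact permutation test of a single gene could not pass 0.05, so the adjusted p rests on the spread shared over all genes.

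**Figure D1:**
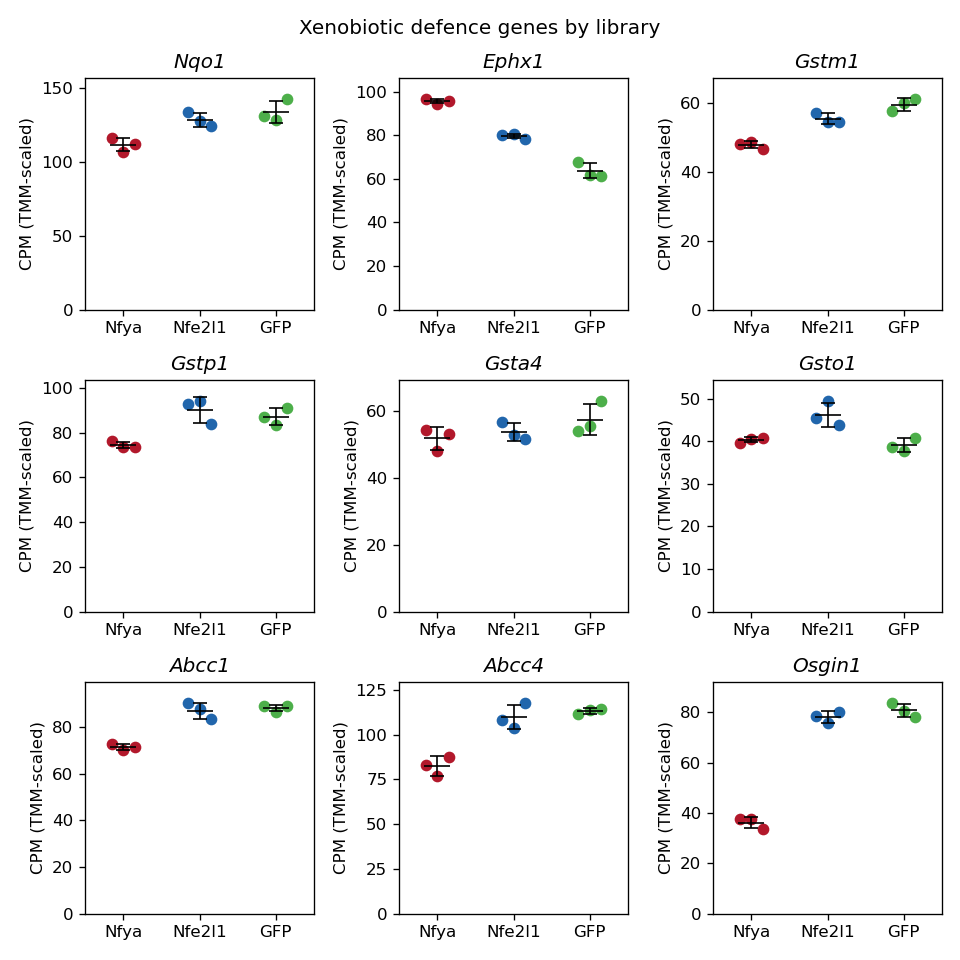
Level of each of the 9 tested genes in every library, in CPM scaled by TMM (vertical axes from 0), for the Nfya-labelled, Nfe2l1-labelled and GFP groups; points are libraries, the bar is the mean and the whiskers 1 SD. Osgin1 lies at 33.6 to 37.6 CPM in the Nfya-labelled libraries and at 75.6 CPM or more in all others, and Ephx1 is highest in the Nfya-labelled group, lower in the Nfe2l1-labelled group and lowest in the GFP group.

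NF-Y and the CNC factors bind known short motifs, so promoters are shown for Osgin1, which had the largest fall, for Ephx1, which rose, and for Nqo1, Gstm1 and Gstp1, the other called genes whose window holds a match to either motif. The windows of Abcc1, Abcc4 and Gsto1, which were also called, held no match and are not printed. They are the 250 bases before the annotated start in RefSeq's GRCr8 table, 5′ to 3′ on the gene's strand; the processing notes name another build, rn6, so these coordinates are GRCr8 only. Capitals mark each match, on either strand, to CCAAT (the NF-Y box) or to TGACNNNGC (the core of the antioxidant response element, which can overlap the AP-1 site TGACTCA). The Osgin1 promoter lies at chr19:64393651-64393900, plus strand, that of Nqo1 at chr19:52220268-52220517, minus strand, that of Gstm1 at chr2:198343384-198343633, minus strand, that of Gstp1 at chr1:210769706-210769955, minus strand, and the second of the RefSeq starts of Ephx1 at chr13:95263118-95263367, minus strand.
Osgin1: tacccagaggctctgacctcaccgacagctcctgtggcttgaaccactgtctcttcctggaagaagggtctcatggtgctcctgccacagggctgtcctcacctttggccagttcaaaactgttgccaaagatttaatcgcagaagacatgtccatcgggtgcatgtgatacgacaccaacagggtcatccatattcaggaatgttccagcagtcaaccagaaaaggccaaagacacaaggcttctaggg
Nqo1: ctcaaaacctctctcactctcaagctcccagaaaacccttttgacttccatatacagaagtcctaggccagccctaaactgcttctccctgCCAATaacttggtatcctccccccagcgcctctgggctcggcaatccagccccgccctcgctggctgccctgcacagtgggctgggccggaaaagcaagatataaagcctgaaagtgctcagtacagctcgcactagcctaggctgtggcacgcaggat
Gstm1: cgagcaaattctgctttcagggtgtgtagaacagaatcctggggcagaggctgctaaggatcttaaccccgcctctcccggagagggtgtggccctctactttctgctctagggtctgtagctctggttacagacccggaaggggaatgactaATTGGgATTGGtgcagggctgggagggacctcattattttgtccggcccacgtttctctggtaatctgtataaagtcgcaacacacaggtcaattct
Gstp1: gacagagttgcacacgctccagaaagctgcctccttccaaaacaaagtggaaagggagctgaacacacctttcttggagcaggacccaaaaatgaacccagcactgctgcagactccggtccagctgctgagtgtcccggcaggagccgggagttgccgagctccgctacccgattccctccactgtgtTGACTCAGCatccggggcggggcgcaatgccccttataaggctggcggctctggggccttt
Ephx1, second start: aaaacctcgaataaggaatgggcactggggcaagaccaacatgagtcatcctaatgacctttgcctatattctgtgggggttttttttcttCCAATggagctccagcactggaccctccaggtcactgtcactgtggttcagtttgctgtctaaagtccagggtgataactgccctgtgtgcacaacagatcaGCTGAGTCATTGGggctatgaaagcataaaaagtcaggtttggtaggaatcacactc

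The window of Osgin1 held no match to either motif. Nqo1 held a CCAAT match 159 bases before its start, and Gstm1 held 2 on the other strand, 97 and 91 bases before its start. Gstp1 carried TGACTCAGC 61 bases before its start, a match to TGACNNNGC that includes an AP-1 site. The second start of Ephx1 had a TGACNNNGC match on the other strand at 57 bases, printed as GCTGAGTCA. Read on that strand it is the same sequence as the Gstp1 match, so it also includes an AP-1 site. CCAAT matches of the second start lay at 159 bases and, on the other strand and sharing 1 base with the TGACNNNGC match, at 49 bases. The window of the first RefSeq start of Ephx1, not printed, held none of the motifs searched. All 10 genes had a RefSeq promoter, 11 windows in all since Ephx1 has 2. TGACNNNGC was found in 2 of the 10 genes (Gstp1 and Ephx1), and in 2 of the 11 windows, against 10.1% of 33469 rat promoters of the same length. CCAAT was found in 4 of 10 (Nqo1, Gstm1, Gsta4 and Ephx1), each in 1 window, against 34.0% of promoters. GCGTG, the core of the element that the aryl hydrocarbon receptor binds, was found in 6 of 10 (Nqo1, Cbr1, Gstp1, Gsta4, Abcc1 and Abcc4), against 25.9%. Such matches describe letters in these windows and not binding. Bases outside the windows were not searched, so a window without a match does not show that the gene lacks the element.

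Osgin1, an inhibitor of growth that oxidative stress induces and a known NFE2L2 target, whose promoter window above holds neither motif, showed the largest change of the 9. It had 37.6, 37.4 and 33.6 CPM in Nfya-labelled libraries, 78.7, 75.6 and 80.2 CPM in Nfe2l1-labelled libraries and 83.5, 80.7 and 78.2 CPM in GFP libraries. The Nfya-labelled libraries stood apart from the other 6, which overlapped. Osgin1 fell 2.24-fold in Nfya-labelled libraries against GFP (log2 fold change -1.16 ± 0.07 SE, adjusted p = 5.03e-11), and 2.76% of all genes tested lay below it. It also fell 2.16-fold against the Nfe2l1-labelled libraries (-1.11 ± 0.07, adjusted p = 8.67e-11). In Nfe2l1-labelled libraries its difference from GFP was -0.05 with a 95% interval of -0.16 to 0.06 (adjusted p = 0.429). Osgin1 was the only one of the 9 genes with a change of at least 2-fold. In Nfya-labelled libraries against GFP, 3.4% of all genes fell that far.

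Nqo1 encodes a quinone reductase that turns quinones into hydroquinones and is a textbook target of CNC factors and of the aryl hydrocarbon receptor. Its level was 116, 107 and 112 CPM in Nfya-labelled libraries, 133, 128 and 124 CPM in Nfe2l1-labelled libraries and 131, 128 and 142 CPM in GFP libraries. All Nfya-labelled libraries lay below all others, while the Nfe2l1-labelled and GFP libraries overlapped. Nqo1 fell by 16.4% in Nfya-labelled libraries against GFP (95% interval 10.8% to 21.6%, adjusted p = 1.31e-04). Compared with the Nfe2l1-labelled libraries, it fell by 13.1% in the Nfya-labelled ones (adjusted p = 0.00113). The Nfe2l1-labelled libraries differed from GFP by -0.06 on the log2 scale, with an interval of -0.15 to 0.03 (adjusted p = 0.278). Cbr1, a carbonyl reductase of quinones and aldehydes, had 1 count in Nfya-labelled replicate 1 and 0 in each of the other 8 libraries. A count of 0 over the 3 libraries allows up to 0.149 CPM in Nfe2l1-labelled and 0.158 CPM in GFP libraries, for counting error only. RefSeq's GRCr8 gene table names 3 further genes of like symbol on the same chromosome (Cbr1l1, Cbr1l2 and Cbr1l3), and how reads of such copies were counted was not tested.

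Ephx1, the microsomal epoxide hydrolase, which adds water to epoxides that oxidases form, was the only gene of the 9 called higher under both factor labels. It had 96.4, 94.5 and 95.7 CPM in Nfya-labelled libraries, 79.9, 80.4 and 78.4 CPM in Nfe2l1-labelled libraries and 67.9, 61.9 and 61.4 CPM in GFP libraries. The 3 groups did not overlap. Ephx1 rose 1.50-fold in Nfya-labelled libraries (log2 fold change 0.58 ± 0.05, adjusted p = 1.11e-08) and 1.25-fold in Nfe2l1-labelled libraries (0.32 ± 0.05, adjusted p = 1.12e-05) against GFP. The Nfya-labelled libraries exceeded the Nfe2l1-labelled ones 1.20-fold (adjusted p = 3.42e-05). GFP replicate 1 was the highest GFP library, and without it the log2 rise of Ephx1 was 0.66 in Nfya-labelled and 0.38 in Nfe2l1-labelled libraries.

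Of the 4 glutathione transferases, Gstm1 and Gstp1 fell in Nfya-labelled libraries and Gsto1 rose in Nfe2l1-labelled libraries. Gstm1, of the mu class, which conjugates glutathione to electrophiles, had 48.1, 48.8 and 46.7 CPM in Nfya-labelled libraries, 57.2, 54.6 and 54.5 CPM in Nfe2l1-labelled libraries and 57.6, 60.0 and 61.0 CPM in GFP libraries. The Nfya-labelled libraries were lowest, and the Nfe2l1-labelled ones also lay below every GFP library, the nearest at 57.2 and 57.6 CPM. Gstm1 fell by 19.5% in Nfya-labelled libraries against GFP (adjusted p = 2.83e-05). The fall was 13.6% in Nfya-labelled libraries when set against the Nfe2l1-labelled ones (adjusted p = 0.00276, and 0.0821 in DESeq2). Between Nfe2l1-labelled libraries and GFP the difference of -0.10 ± 0.06 did not pass the test (adjusted p = 0.138), whereas limma on log2(RPKM + 1) called it (adjusted p = 0.0143). Libraries whose values did not overlap were found for 64% of all genes in that comparison. Gstm1 has close relatives in the genome, and how reads shared with them were counted was not tested.

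Gstp1, the pi class enzyme, had 76.2, 73.7 and 73.8 CPM in Nfya-labelled libraries, 93.0, 94.1 and 83.7 CPM in Nfe2l1-labelled libraries and 87.2, 83.5 and 90.9 CPM in GFP libraries. Its lowest value outside the Nfya-labelled group exceeded the highest value inside it. In Nfya-labelled libraries Gstp1 fell by 14.3% compared with GFP (adjusted p = 0.00129). Compared with Nfe2l1-labelled libraries the fall was 17.1% (adjusted p = 2.09e-04), while Nfe2l1-labelled libraries differed from GFP by 0.05 with an interval of -0.06 to 0.15 (adjusted p = 0.405).

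Gsta4, an alpha class enzyme with a preference for 4-hydroxynonenal, a product of lipid peroxidation, gave 54.6, 48.0 and 53.2 CPM in Nfya-labelled libraries, 56.9, 53.0 and 51.7 CPM in Nfe2l1-labelled libraries and 54.1, 55.6 and 63.0 CPM in GFP libraries. The groups overlapped, and no comparison of Gsta4 passed the test (adjusted p = 0.0785 for Nfya-labelled and 0.234 for Nfe2l1-labelled libraries against GFP, and 0.557 for Nfya- against Nfe2l1-labelled libraries). The interval of its Nfya-labelled difference from GFP ran from -0.28 to -0.0044. Gsto1, the omega class enzyme, which reduces dehydroascorbate and glutathionylated proteins, had 39.7, 40.6 and 40.9 CPM in Nfya-labelled libraries, 45.4, 49.4 and 43.9 CPM in Nfe2l1-labelled libraries and 38.6, 37.8 and 40.9 CPM in GFP libraries. Here the Nfe2l1-labelled libraries were highest and the Nfya-labelled and GFP libraries overlapped. Gsto1 rose 1.18-fold in Nfe2l1-labelled libraries against GFP (0.24 ± 0.07, adjusted p = 0.00167). It was 12.4% lower in Nfya-labelled than in Nfe2l1-labelled libraries (adjusted p = 0.0141), a call lost in DESeq2 (adjusted p = 0.176) and without Nfe2l1 replicate 2 (adjusted p = 0.114).

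Both exporters fell under the Nfya label. Abcc4, known as MRP4, which exports cyclic nucleotides and conjugates, had 82.8, 76.7 and 87.7 CPM in Nfya-labelled libraries, 108, 104 and 117 CPM in Nfe2l1-labelled libraries and 112, 114 and 114 CPM in GFP libraries. Abcc1, known as MRP1, a pump for glutathione conjugates, had 73.0, 70.2 and 71.4 CPM in Nfya-labelled libraries, 90.3, 87.8 and 83.6 CPM in Nfe2l1-labelled libraries and 89.0, 86.7 and 89.2 CPM in GFP libraries. For each pump the Nfya-labelled libraries lay below the other 6, among which the groups overlapped. Abcc4 fell 1.37-fold (-0.46 ± 0.05, adjusted p = 1.60e-06) and Abcc1 1.23-fold (-0.30 ± 0.05, adjusted p = 1.11e-05) in Nfya-labelled libraries against GFP. Against Nfe2l1-labelled libraries the falls were 1.34-fold for Abcc4 (adjusted p = 4.34e-06) and 1.22-fold for Abcc1 (adjusted p = 2.03e-05). In Nfe2l1-labelled libraries the difference from GFP was -0.04 for Abcc4 (interval -0.14 to 0.06, adjusted p = 0.487) and -0.02 for Abcc1 (interval -0.12 to 0.09, adjusted p = 0.754). The sign of the last value turned under 3 of the alternatives tried.

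The direct comparison of Nfya- with Nfe2l1-labelled libraries is the test of whether the effects against GFP differ. It called 8 of the 9 genes, 1 higher (Ephx1) and 7 lower (all but Gsta4), with a median log2 fold change of -0.21, where 25.2% of all genes were called higher and 25.4% lower (50.6% in either direction). Libraries did not overlap for these 8 genes, as for 60% of all genes.

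**Figure D2:**
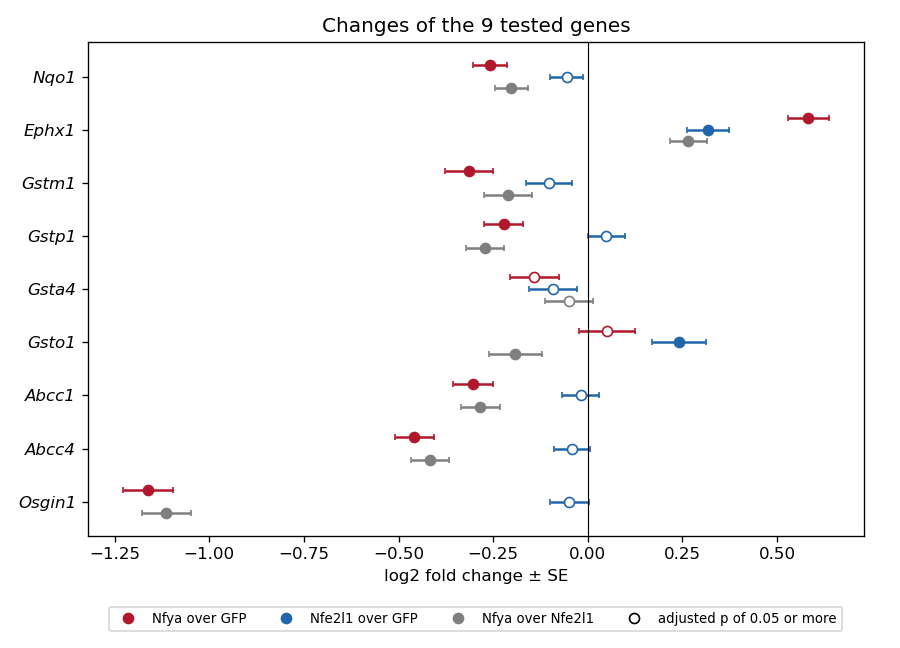
Log2 fold change of the 9 tested genes with its standard error (horizontal axis), for Nfya-labelled over GFP, Nfe2l1-labelled over GFP, and Nfya-labelled over Nfe2l1-labelled libraries; filled points have an adjusted p below 0.05. Osgin1 is far to the left at -1.16 and -1.11, Ephx1 is the only gene to the right in all comparisons, and 7 of 9 genes are open for Nfe2l1-labelled over GFP.

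Per gene length, Gstp1 led the 9 genes in every group, with 97.7 ± 1.85 RPKM in Nfya-labelled, 117 ± 6.30 RPKM in Nfe2l1-labelled and 113 ± 4.34 RPKM in GFP libraries, a level above 98.2% of the genes in the RPKM table in Nfya-labelled, 99.5% in Nfe2l1-labelled and 99.2% in GFP libraries. Nqo1 came next, with 71.1 ± 2.91 RPKM in Nfya-labelled, 80.8 ± 2.64 RPKM in Nfe2l1-labelled and 84.3 ± 4.26 RPKM in GFP libraries. In GFP libraries Gsta4 (56.7 ± 4.40 RPKM) and Gstm1 (53.1 ± 1.38 RPKM) followed with overlapping libraries, then Osgin1 (36.5 ± 1.36 RPKM), Gsto1 (35.5 ± 1.28 RPKM) and Ephx1 (33.0 ± 1.95 RPKM), each overlapping its neighbour. Abcc4 (25.2 ± 0.275 RPKM) and Abcc1 (19.2 ± 0.254 RPKM) were last and apart. The order changed at the middle and the end in Nfya-labelled libraries. There Ephx1 stood at 50.1 ± 0.521 RPKM, overlapping Gsta4 (51.8 ± 3.47 RPKM), and Osgin1 at 16.5 ± 1.03 RPKM, overlapping Abcc1 (15.7 ± 0.308 RPKM). In Nfe2l1-labelled libraries Ephx1 (41.1 ± 0.155 RPKM) overlapped Gsto1 (41.9 ± 2.20 RPKM), and Osgin1 came after both at 35.2 ± 1.39 RPKM.

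**Figure D3:**
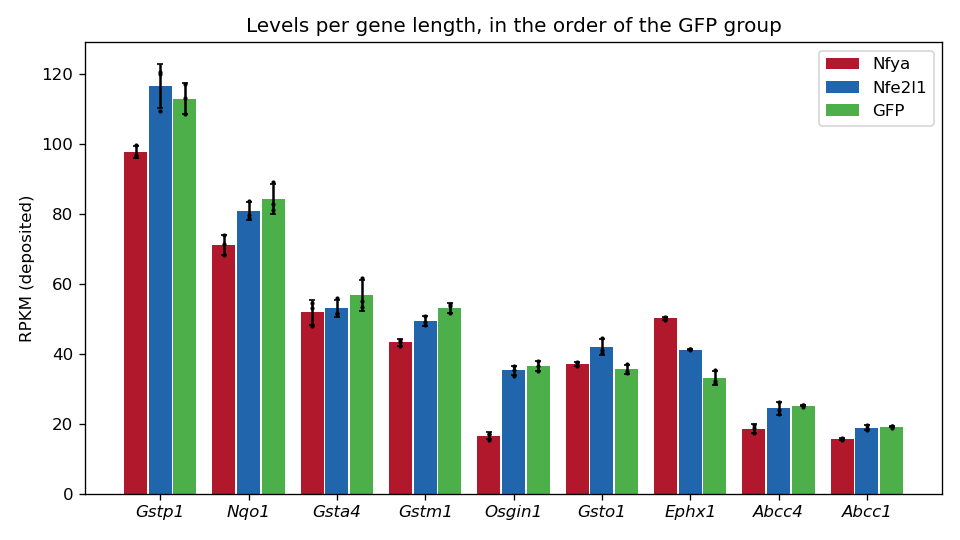
Deposited RPKM (vertical axis, from 0) of the 9 genes with an RPKM value, in the order of the GFP group; bars are group means for the Nfya-labelled, Nfe2l1-labelled and GFP groups, whiskers 1 SD, and dots the 3 libraries. Gstp1 and Nqo1 are highest in every group, and the Osgin1 bar of the Nfya-labelled group (16.5 RPKM) lies far below those of the other groups.

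The genes whose pattern over the 9 libraries was most like a member's were taken by the root mean square difference of centred log2 CPM, among 11926 genes. For Osgin1 these were Gpat3, an acyltransferase of glycerolipid synthesis (0.0572), S1pr3, a sphingosine-1-phosphate receptor (0.0962), and AABR07054319.1 (0.112), against a median of 0.553 over all genes. Gpat3 had 57.1 ± 1.93 CPM in Nfya-labelled, 128 ± 3.51 CPM in Nfe2l1-labelled and 125 ± 2.80 CPM in GFP libraries. For Nqo1 they were Cacybp (0.0271), Ppp3r1 (0.0331) and Rpl7l1 (0.0332), against a median of 0.188. For Ephx1 they were the thrombin receptor gene F2r (0.0301), Lpgat1 (0.0344) and Myo6 (0.0445), against a median of 0.297. F2r had 131 ± 1.54 CPM in Nfya-labelled, 106 ± 3.04 CPM in Nfe2l1-labelled and 87.0 ± 6.11 CPM in GFP libraries.

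Counts of related genes are to be read beside those of all genes tested, of which 24.3% rose and 27.9% fell in Nfya-labelled and 28.9% rose and 29.7% fell in Nfe2l1-labelled libraries. Most genes listed with the oxidases of the first step rose under both factor labels. That list holds CYP and FMO genes and also Por, Maoa and Maob. Of 15 tested from it, 11 rose and 1 fell in Nfya-labelled libraries (median 0.74), and 10 rose and 1 fell in Nfe2l1-labelled libraries (median 1.19). DESeq2 called 9 higher and 1 lower in Nfya-labelled and 8 higher and 1 lower in Nfe2l1-labelled libraries. Cyp1a1, the classical aryl hydrocarbon receptor target, had 65.2 ± 1.99 CPM in Nfya-labelled, 64.1 ± 2.07 CPM in Nfe2l1-labelled and 18.5 ± 1.36 CPM in GFP libraries. It rose 3.50-fold in Nfya-labelled (adjusted p = 1.92e-12) and 3.44-fold in Nfe2l1-labelled libraries (adjusted p = 1.68e-12). Cyp1b1, from the same family, rose 2.95-fold in Nfya-labelled and 2.63-fold in Nfe2l1-labelled libraries. Cyp2e1 rose by 3.93 on the log2 scale in Nfya-labelled and by 2.89 in Nfe2l1-labelled libraries, but had only 1, 1 and 2 counts in the GFP libraries. Of 14 regulators, 3 rose and 7 fell in Nfya-labelled libraries, while 7 rose and 1 fell in Nfe2l1-labelled libraries (3 and 5 in Nfya-labelled, 5 and 1 in Nfe2l1-labelled libraries by DESeq2). Ahr, which encodes the aryl hydrocarbon receptor, had 98.3 ± 1.51 CPM in Nfya-labelled, 105 ± 2.63 CPM in Nfe2l1-labelled and 52.0 ± 2.56 CPM in GFP libraries, a rise of 1.89-fold under the Nfya label (adjusted p = 7.84e-11) and of 2.02-fold under the Nfe2l1 label (adjusted p = 1.33e-11). Its repressor gene Ahrr rose 1.63-fold in Nfya-labelled and 1.93-fold in Nfe2l1-labelled libraries. Maff, a small MAF partner of the CNC factors, fell 1.31-fold in Nfya-labelled libraries and rose 1.58-fold in Nfe2l1-labelled libraries against GFP.

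Other targets of CNC factors were mostly lower in Nfya-labelled libraries. Of 17 tested, 0 rose and 13 fell in Nfya-labelled libraries (median -0.27), and 10 rose and 3 fell in Nfe2l1-labelled libraries (median 0.13). Directly compared, 0 of 17 were higher and 12 lower in Nfya-labelled than in Nfe2l1-labelled libraries. Both counts of 0 were also found at an unadjusted p below 0.05, in DESeq2 and in limma. DESeq2 called 11 lower in Nfya-labelled, and 7 higher and 3 lower in Nfe2l1-labelled libraries. Slc7a11, the cystine transporter, had 42.5 ± 2.58 CPM in Nfya-labelled, 225 ± 4.86 CPM in Nfe2l1-labelled and 60.0 ± 8.09 CPM in GFP libraries. Hmox1, heme oxygenase, had 81.3 ± 5.23 CPM in Nfya-labelled, 155 ± 9.15 CPM in Nfe2l1-labelled and 160.2 ± 6.54 CPM in GFP libraries. As for Osgin1, its Nfya-labelled libraries lay below all others, while the Nfe2l1-labelled and GFP libraries overlapped. Gpx2, a glutathione peroxidase, had 2, 1 and 3 counts in the Nfya-labelled libraries, 94 to 114 counts in each Nfe2l1-labelled and 5 to 8 counts in each GFP library.

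Of 25 other quinone, carbonyl and aldehyde enzymes, 9 rose and 8 fell in Nfya-labelled libraries, and 10 rose and 5 fell in Nfe2l1-labelled libraries. DESeq2 called 7 higher and 5 lower in Nfya-labelled and 9 higher and 4 lower in Nfe2l1-labelled libraries. Cbr3, a carbonyl reductase related to Cbr1, had 12.0, 12.0 and 13.7 CPM in Nfya-labelled libraries, 25.0, 26.6 and 27.0 CPM in Nfe2l1-labelled libraries and 6.74, 6.94 and 5.31 CPM in GFP libraries. It rose 1.97-fold in Nfya-labelled (adjusted p = 1.19e-05) and 4.10-fold in Nfe2l1-labelled libraries (adjusted p = 3.45e-10) against GFP, and the 3 groups did not overlap. Aldh1a3, an aldehyde dehydrogenase of retinoic acid synthesis, rose 4.72-fold in Nfya-labelled and 3.48-fold in Nfe2l1-labelled libraries. The aldo-keto reductase gene Akr1b8 rose 1.14-fold in Nfya-labelled (a call lost in DESeq2, adjusted p = 0.0654) and 1.67-fold in Nfe2l1-labelled libraries. Of 13 other glutathione transferases, 5 rose and 4 fell in Nfya-labelled libraries, and 6 rose and 2 fell in Nfe2l1-labelled libraries, shares near those of all genes in Nfya-labelled libraries. DESeq2 called 2 higher and 1 lower in Nfya-labelled, and 5 higher and 1 lower in Nfe2l1-labelled libraries. Mgst1, a microsomal transferase, fell 1.41-fold in Nfya-labelled libraries and rose 1.13-fold in Nfe2l1-labelled libraries (the rise was lost in DESeq2, adjusted p = 0.0824), while Mgst2 rose 1.78-fold in Nfya-labelled and 2.50-fold in Nfe2l1-labelled libraries. Gstz1, of the zeta class, rose 1.35-fold in Nfya-labelled and 1.51-fold in Nfe2l1-labelled libraries.

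Of 2 other epoxide hydrolases tested, Ephx2, the soluble enzyme, rose 1.17-fold in Nfya-labelled libraries and Lta4h, which makes leukotriene B4, fell 1.12-fold. Both calls were lost in DESeq2 (adjusted p = 0.0742 for Ephx2 and 0.0729 for Lta4h). In edgeR 0 were called in Nfe2l1-labelled libraries (58.6% of all genes were called there). That count was also 0 at an unadjusted p below 0.05 and in DESeq2, and limma called 1 lower. Of 13 other conjugating enzymes, 5 rose and 1 fell in Nfya-labelled libraries, and 5 rose and 4 fell in Nfe2l1-labelled libraries. DESeq2 called 3 higher and 1 lower in Nfya-labelled, and 4 higher and 0 lower in Nfe2l1-labelled libraries. Ugt1a1, a glucuronosyltransferase whose gene shares exons with its relatives so that counts may be split, rose 2.36-fold in Nfya-labelled and 2.22-fold in Nfe2l1-labelled libraries. Ugdh, which makes the glucuronate donor, rose 1.34-fold in Nfya-labelled and 1.31-fold in Nfe2l1-labelled libraries. Nnmt, a methyltransferase of nicotinamide, rose 1.70-fold under the Nfya label and 2.41-fold under the Nfe2l1 label. Of 9 other efflux pumps, 3 rose and 2 fell in Nfya-labelled libraries, and 4 rose and 2 fell in Nfe2l1-labelled libraries, which in Nfya-labelled libraries is near the share of all genes. DESeq2 called 3 higher and 1 lower in Nfya-labelled, and 4 higher and 1 lower in Nfe2l1-labelled libraries. Abcc5, of the same family as Abcc1 and Abcc4, had 101 ± 5.75 CPM in Nfya-labelled, 120.3 ± 2.29 CPM in Nfe2l1-labelled and 161 ± 4.30 CPM in GFP libraries, and so fell under the Nfya label (adjusted p = 7.42e-10) and under the Nfe2l1 label (adjusted p = 8.56e-08). Abcb4, a phospholipid pump, rose 1.61-fold in Nfya-labelled and 1.57-fold in Nfe2l1-labelled libraries. Abcb1a and Abcb1b, of the same list, had no row, and whether their reads were counted under Abcb4 was not tested.

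**Figure D4:**
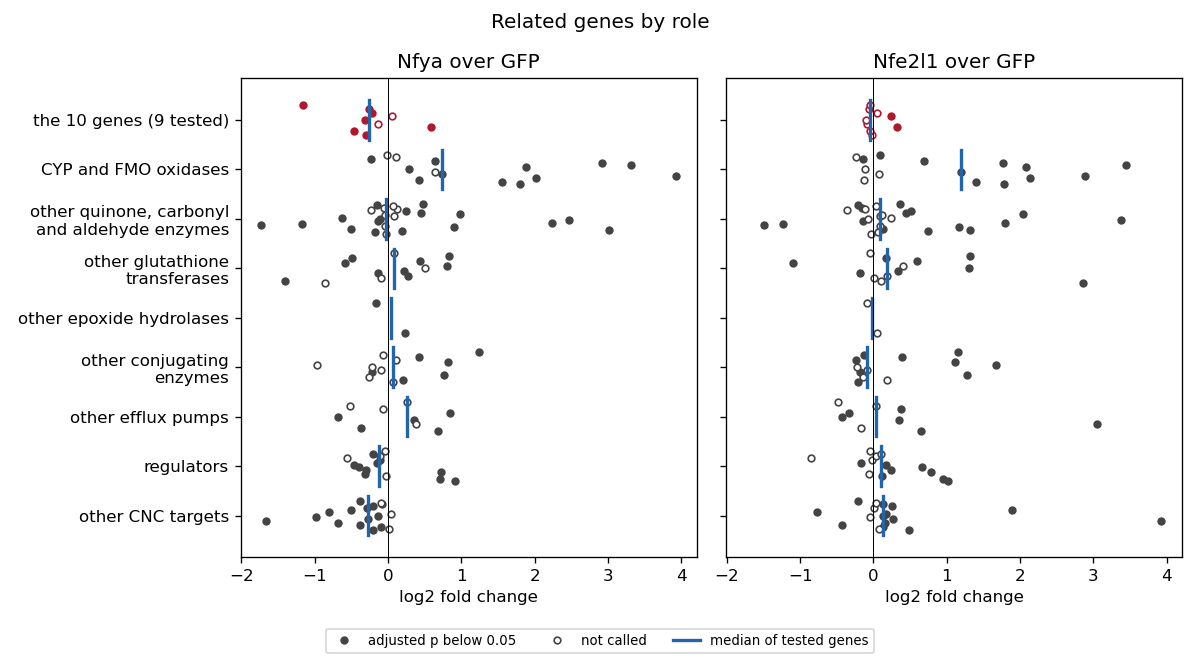
Log2 fold change (horizontal axis) of the 9 tested genes (red) and of related genes by role (grey), for Nfya-labelled over GFP (left) and Nfe2l1-labelled over GFP (right); each point is a gene, filled where the adjusted p is below 0.05, and blue lines are medians. Genes of the row labelled CYP and FMO oxidases, which also holds Por, Maoa and Maob, lie mostly to the right in both panels. Other CNC targets lie mostly left of 0 in the left panel (median -0.27) and mostly right of it in the right panel (median 0.13).

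Cell type markers were compared in the same groups, and their sums did not all follow the same order. In either direction 52.2% of all genes were called in Nfya-labelled and 58.6% in Nfe2l1-labelled libraries against GFP. Of 9 myocyte markers 1 rose (Myh6, by 0.16 on the log2 scale) and 0 fell (1 at an unadjusted p below 0.05, 0 in DESeq2 and limma) in Nfya-labelled libraries, and 0 rose by any of these tools and 2 fell (Mb by 0.17 and Nppa by 0.14, the call of Nppa being lost in DESeq2 at adjusted p = 0.0734) in Nfe2l1-labelled libraries. Their summed level was 3384 to 3432 CPM in Nfya-labelled, 3053 to 3367 CPM in Nfe2l1-labelled and 3176 to 3529 CPM in GFP libraries, with none at 0, so myocyte RNA was present in every library. Of 12 fibroblast markers, 11 rose and 1 fell in Nfya-labelled libraries (11 and 0 in DESeq2 and in limma) and 10 rose in Nfe2l1-labelled libraries. They summed to 2039 to 2065 CPM in Nfya-labelled, 1720 to 1839 CPM in Nfe2l1-labelled and 1108 to 1166 CPM in GFP libraries, the same order as Ephx1, with none at 0 (in Nfya-labelled libraries Postn rose by 1.29, Lum by 2.25 and Ddr2 by 1.49 on the log2 scale). Their part in the changes of Ephx1, Osgin1 and the other genes was not tested, and fewer cells of a type and less RNA per cell cannot be told apart in bulk RNA.

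Epicardial and mesothelial markers (6 of 8 higher and 2 lower under each factor label) summed to 181 to 204 CPM in Nfya-labelled, 198 to 219 CPM in Nfe2l1-labelled and 158 to 167 CPM in GFP libraries. Upk1b rose 5.69-fold and Msln 9.22-fold in Nfya-labelled libraries, where Aldh1a2 fell by 0.38 on the log2 scale. Msln had only 4 to 13 counts in each GFP library. Endothelial markers (5 of 7 higher and 1 lower under each) summed to 371 to 389 CPM in Nfya-labelled, 410.4 to 429.5 CPM in Nfe2l1-labelled and 287 to 301 CPM in GFP libraries. In Nfya-labelled libraries Eng rose by 1.12 and Tek by 1.77 on the log2 scale, and Kdr fell by 1.08. Smooth muscle and pericyte markers (5 of 7 higher and 1 lower in Nfya-labelled, 2 higher and 3 lower in Nfe2l1-labelled libraries) summed to 1087 to 1107 CPM in Nfya-labelled, 766 to 795 CPM in Nfe2l1-labelled and 975 to 987 CPM in GFP libraries. Macrophage and leukocyte markers (3 of 5 higher and 1 lower in Nfya-labelled, 3 higher and, by edgeR at either p, DESeq2 or limma, 0 lower in Nfe2l1-labelled libraries) summed to 90.2 to 101 CPM in Nfya-labelled, 91.6 to 106 CPM in Nfe2l1-labelled and 69.5 to 87.2 CPM in GFP libraries, with Cd163 at 0 in Nfe2l1-labelled libraries. No erythroid marker had enough counts to be tested, and they summed to at most 1.06 CPM.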

How the data were processed

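The authors deposited whole-number counts for 28935 gene symbols and RPKM values for 14986 genes; per the file headers, a Length column (other, in bases) goes with the RPKM table. Their edgeR tables hold deposited log2 fold changes, a likelihood ratio score, and p-values with adjusted p-values. The submitters' processing notes name edgeR 3.20.5, featureCounts 1.6.0 and FastQC 0.11.4, and as builds GRCm38, mm10 and rn6. The aligner, annotation and strand setting were not given in the sources used here.

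The counts went through edgeR 4.0.16 (R 4.3.3): filterByExpr by group (14151 genes), TMM, and the quasi-likelihood F test with Benjamini-Hochberg adjustment in 1 fit of the 9 libraries by group. The SE of a log2 fold change is the largest of edgeR's, of the one its p implies and of counting alone. The Cbr1 row did not pass the filter. Alternatives used DESeq2 1.42.0, limma 3.58.1 on log2(RPKM + 1), other scalings, filters and libraries. Library totals of 5712123 to 7310774 counts limit precision. In 16 of 27 gene and group pairs the SD was at or below that of counting alone, so these pairs showed no spread beyond counting. They were not confined to Nfya-labelled libraries. Ephx1 had an SD of 1.05 CPM in Nfe2l1-labelled libraries, against 3.44 CPM for counting alone. For Abcc4 in GFP libraries the values were 1.53 and 4.24 CPM. The labels do not say whether replicate numbers pair libraries. The correlation of deviations was -0.14 to 0.09 for the same number and -0.16 to 0.18 for others. These values cannot decide it, since the Nfya-labelled libraries differed by no more than counting noise.

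The 10 genes and 16 lists of related and marker genes were chosen with earlier results of these data known. Together they hold 211 genes, the 10 included, and 198 of these have a row. Beside the 10, the text names up to 3 genes per list with the smallest p in either comparison with GFP, and the 3 genes most like Nqo1, Osgin1 and Ephx1 at 5 CPM or more on average. A gene that this rule names is not reported here.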

Additional observations from a re-analysis of the deposited data

How the results depend on the processing

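Across 21 alternatives, 22 of 27 results (9 genes in 3 comparisons) kept their direction and their side of the threshold in each. The number of genes of the 9 called lower in Nfe2l1-labelled libraries against GFP was 1 (Gstm1) in place of 0 in each of the 3 limma fits of RPKM (adjusted p = 0.0143, 0.0159 and 0.0134). In Nfya-labelled against Nfe2l1-labelled libraries Gstm1 and Gsto1 lost their calls in DESeq2 (5 lower in place of 7), and Gsto1 also without Nfe2l1 replicate 2. DESeq2 called 2486 of all genes lower in Nfya-labelled libraries against GFP (3953 in edgeR) and 2392 lower against Nfe2l1-labelled libraries (3597 in edgeR). Uncalled differences near 0 turned sign: Abcc1 in Nfe2l1-labelled libraries against GFP at 0.016 with no filter on low counts, 9.9e-05 with a mean of at least 5 CPM and -0.026 to 0.027 when 1 library was left out, and Gsta4 in Nfya-labelled against Nfe2l1-labelled libraries at -0.086 to 0.0070 when 1 library was left out. The Nfe2l1 transcript in Nfe2l1-labelled libraries against GFP was 0.028 with no filter, 0.011 with a mean of at least 5 CPM, 0.0046 with a ceiling of 1.6 counts per base inverted, and -0.022 to 0.027 with 1 library left out. The cause was not tested. With the replicate number as a block the calls of the 9 genes did not change, and 3371 genes were higher and 3849 lower in Nfya-labelled libraries against GFP, 4040 and 4097 in Nfe2l1-labelled libraries against GFP, and 3428 and 3501 between the factor labels. The fit with the 3 Nfya-labelled libraries summed to 1 sample was chosen after seeing the data and assumes that this sample varies like the other groups. It gave 3146 higher and 3591 lower genes against GFP and the same 7 calls among the 9 genes. The scalings tried moved the median of all genes by less than 0.1 on the log2 scale. Which direction held more calls in Nfya-labelled libraries against GFP depended on filter and libraries. Of the genes called there, 46.5% were higher in the main fit. That share was 54.0% with a mean of at least 5 CPM and 53.5% with only the 6 libraries compared. Among the 9 genes, 1 was called higher and 6 lower in every alternative, and Nqo1 ran from -0.31 to -0.22. Depth limits what can be said of Cbr1, and of Cyp2e1, Gpx2 and Msln, which rest on few counts in at least the GFP libraries.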

Other observations

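Single libraries ranked alike across the 9 tested genes. GFP replicate 3, the library with the fewest counts, was the highest GFP library for 7 of 9 genes (all but Ephx1 and Osgin1), and Nfe2l1 replicate 3, the library with the most counts, was the lowest of its group for 7 of 9 (all but Abcc4 and Osgin1). Nqo1 and Gstp1 were the 2 genes of the 9 with more than 0.5 counts per base of gene length in a library, at up to 0.576 and 0.798. The myocyte markers Mb and Nppa reached 0.804 and 1.06. Whether counts level off at such densities was not tested, though an alternative assumed a ceiling of 1.6 counts per base. Across the alternatives the log2 fold change of Gstp1 in Nfya-labelled libraries ran from -0.28 to -0.18 against GFP. Against Nfe2l1-labelled libraries it ran from -0.38 to -0.23.

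In the authors' deposited table for Nfya against GFP, Osgin1 has a log2 fold change of -1.13, Ephx1 0.62, Abcc4 -0.42 and Nqo1 -0.22. In the authors' deposited table for Nfe2l1 against GFP, Ephx1 has 0.32, Gsto1 0.24 and Osgin1 -0.05.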
